A study of Homo sapiens with 18 samples.

Results

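Accessible regions at 10 genes that encode secreted WNT ligands, R-spondins and antagonists of this pathway were examined by bulk ATAC-seq, in which a transposase inserts sequencing adaptors into open chromatin. The cells were Ccd18-Co fibroblasts, a widely used line from human colon. The genes were WNT2, WNT2B, WNT4, WNT5A, WNT5B, RSPO1, RSPO2, RSPO3, SFRP1 and DKK3. A region, or peak, of the deposited count table was taken if it overlapped the body of one of these genes or the 10 kb upstream of it in the GENCODE annotation of hg38, which gave 144 of the 334857 peaks. No accessibility value entered this rule, although the genes were chosen with earlier results of these data known. The 18 libraries formed 3 groups of 6. Unstimulated cells were the first group. Cells of the other groups received 3 pulses of TNF, OSM and IL-17A at 10 ng/ml each with IL-1β at 0.1 ng/ml, each pulse lasting 72 h and followed by 96 h of recovery. After 1 week of rest, they were given DMSO, the solvent, or 250 nM of the histone deacetylase inhibitor belinostat for 5 days, and they were collected 2 weeks later. These concentrations were taken from the sample labels. The paper names a much higher belinostat concentration for its assays unless stated otherwise, and in places a lower one of IL-1β. No transgene or deletion was involved, all libraries came from a single cell line, and the labels do not say whether unstimulated cells received DMSO. The cytokine contrast is DMSO minus unstimulated, and the belinostat contrast is belinostat minus DMSO. The labels give no rest or collection times for unstimulated cells. In the cytokine contrast the pulses therefore cannot be told apart from DMSO, handling or time in culture. Both contrasts use the same DMSO libraries, so a high or low DMSO value enters them with opposite signs. Changes are in log2 units, ± after a change is its SE, and adjusted p is from the edgeR quasi-likelihood test.

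WNT ligands are lipid-modified proteins that bind Frizzled receptors on neighbouring cells. Some ligands, such as WNT2 and WNT2B, mainly stabilize β-catenin with the help of LRP co-receptors, whereas others, such as WNT5A, mainly act through ROR receptors without it. R-spondins bind LGR receptors and clear the ligases RNF43 and ZNRF3, which otherwise remove Frizzled from the cell surface, and so strengthen a WNT signal. In the gut, fibroblasts below and around the crypts supply WNT ligands and R-spondins to epithelial stem cells and also make antagonists such as the SFRP proteins, which bind WNT ligands.

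Total counts in peaks ran from 7077321 to 11352032 in unstimulated, from 6488975 to 8066642 in DMSO and from 4661678 to 6370845 in belinostat libraries. At the starts of fibroblast genes accessibility was mixed. COL1A1 and VIM lay at the 96.6 and 95.0 percentile of the 16785 protein-coding starts that had a peak within 1 kb, PDGFRA and THY1 at the 54.5 and 61.2 percentile, and DCN, LUM and COL3A1 at the 16.4, 23.2 and 22.9 percentile. The starts of the 5 epithelial markers lay between the 0.191 (CDH1) and 17.0 (EPCAM) percentile, and those of SOX10 and S100B (glia) at 8.04 and 7.97. Of the leukocyte markers described here PTPRC had no peak within 1 kb of the start, CD3E lay at 1.66 and CD68 at 48.3. The endothelial markers PECAM1 and VWF lay at 3.66 and 3.32, and CDH5 had no peak. The smooth muscle markers ACTA2, MYH11 and DES lay at 76.8, 40.6 and 13.7, and ACTA2 is also made by activated fibroblasts. The part of other cell types in the results was not tested. Counts at weak peaks were higher and those at strong peaks lower in DMSO than in unstimulated libraries, with a median log2 fold change of 0.79 in the weakest and -0.37 in the strongest of 20 equal bins of peaks. Loess offsets remove this trend from values of single peaks, and values with them are given beside many of the results. For sums the offsets followed the strength of the whole sum, so a rise of weak peaks within a sum can remain. A group of 4 stimulated libraries, DMSO 1 and 2 and belinostat 4 and 5, deviated together from their group means. Over peaks with an average log2 CPM over 2, the deviations of DMSO 1 correlated with those of belinostat 4 at 0.40 and of belinostat 5 at 0.24, as a description of libraries that share this line. Those of DMSO 2 correlated with belinostat 4 and 5 at 0.21 and 0.14, and belinostat 4 with 5 at 0.10. Outside this group, DMSO 5 correlated with belinostat 2 and 3 at 0.21 and 0.20, so the 4 are not sharply set apart. Values without these 4 libraries, an alternative chosen after seeing the data, are given beside several of the results.

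Peaks are numbered along the chromosome within each gene. Of these 144 peaks, 96 were intronic, 21 overlapped an exon of the canonical transcript, 7 an exon of another transcript, and 20 lay upstream of the gene. The central 300 bases of 3 peaks are shown because the results below turn on them. WNT2B_p11, in an intron of WNT2B, was the most accessible of all 144 peaks and lower after belinostat. RSPO1_p9, upstream of RSPO1, was lower in both contrasts. DKK3_p5, in an intron of DKK3, was lower after cytokines. The sequences are from hg38, plus strand, 5′ to 3′, none of the windows overlaps an annotated untranslated region, and capitals mark matches on either strand to the words searched, which were TGANTCA (AP-1), GGAATG (TEAD), TGTGGT (RUNX), TTGCNNAA (C/EBP), TTCNNNGAA (STAT) and CTTTGA (TCF/LEF).
WNT2B_p11 (chr1:112513227-112513526): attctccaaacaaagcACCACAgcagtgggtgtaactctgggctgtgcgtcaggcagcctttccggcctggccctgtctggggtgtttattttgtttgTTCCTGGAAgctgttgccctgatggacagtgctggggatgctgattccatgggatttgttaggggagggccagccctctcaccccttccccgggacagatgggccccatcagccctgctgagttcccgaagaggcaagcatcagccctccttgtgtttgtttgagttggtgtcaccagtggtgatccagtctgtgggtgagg
RSPO1_p9 (chr1:37635874-37636173): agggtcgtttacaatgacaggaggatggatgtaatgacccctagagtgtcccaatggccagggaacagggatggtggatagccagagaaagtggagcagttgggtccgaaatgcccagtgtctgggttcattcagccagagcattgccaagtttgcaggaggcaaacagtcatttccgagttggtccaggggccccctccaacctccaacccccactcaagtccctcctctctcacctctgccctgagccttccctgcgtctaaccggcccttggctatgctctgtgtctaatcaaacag
DKK3_p5 (chr11:11973573-11973872): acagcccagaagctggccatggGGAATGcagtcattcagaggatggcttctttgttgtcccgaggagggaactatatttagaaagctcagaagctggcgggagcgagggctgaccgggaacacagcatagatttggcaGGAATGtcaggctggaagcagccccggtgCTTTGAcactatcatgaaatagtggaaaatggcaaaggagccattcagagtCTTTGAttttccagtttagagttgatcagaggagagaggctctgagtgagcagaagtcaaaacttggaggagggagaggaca

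Matches are a description of letters, not of binding. The WNT2B_p11 window held 1 RUNX and 1 STAT match, the DKK3_p5 window held 2 TEAD and 2 TCF/LEF matches, and the RSPO1_p9 window held none of the words. Among the central windows of all 144 peaks, 20.1% held the AP-1 word, 20.8% the TEAD word, 19.4% the RUNX word, 11.1% the C/EBP word, 13.9% the STAT word and 16.7% the TCF/LEF word. Among the windows of all 334857 peaks the shares were 17.8%, 21.3%, 22.6%, 14.1%, 8.70% and 16.4% in the same order.

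All 10 genes had a peak over the start of the canonical transcript, and their levels per length of peak differed widely. In unstimulated cells, the WNT2B start had the highest level at 27.1 ± 2.52 CPM (counts scaled to library size) per kb of peak (SD, n = 6), followed by WNT5A at 20.0 ± 1.55, RSPO1 at 17.4 ± 1.20, RSPO2 at 13.8 ± 1.13, DKK3 at 10.1 ± 1.38, WNT4 at 9.38 ± 0.871, WNT2 at 8.03 ± 0.509, WNT5B at 6.83 ± 2.01 and SFRP1 at 6.79 ± 0.844. The RSPO3 start had the lowest level, 2.13 ± 0.445 CPM per kb. Libraries of WNT2B and WNT5A, of RSPO1 and RSPO2, of RSPO2 and DKK3, and of SFRP1 and RSPO3 did not overlap, while the other neighbours in this order did. The order depends on the width of the peak, which was 393 bp at WNT2B and 1756 bp at RSPO2. Without division by width, the strongest peak within 1 kb of the start was highest at RSPO2, with an average log2 CPM of 4.29 over all libraries. It was 3.11 at WNT2B and lowest, 1.10, at WNT5B. These lay at the 56.8, 31.1 and 14.2 percentile of the protein-coding starts. Away from the starts, WNT2B_p11 reached 87.6 ± 11.8 CPM per kb (SD, n = 6) and WNT5B_p12, an intronic peak of WNT5B that also lies in the gene FBXL14, reached 52.4 ± 4.17 (SD, n = 6).

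**Figure D1:**
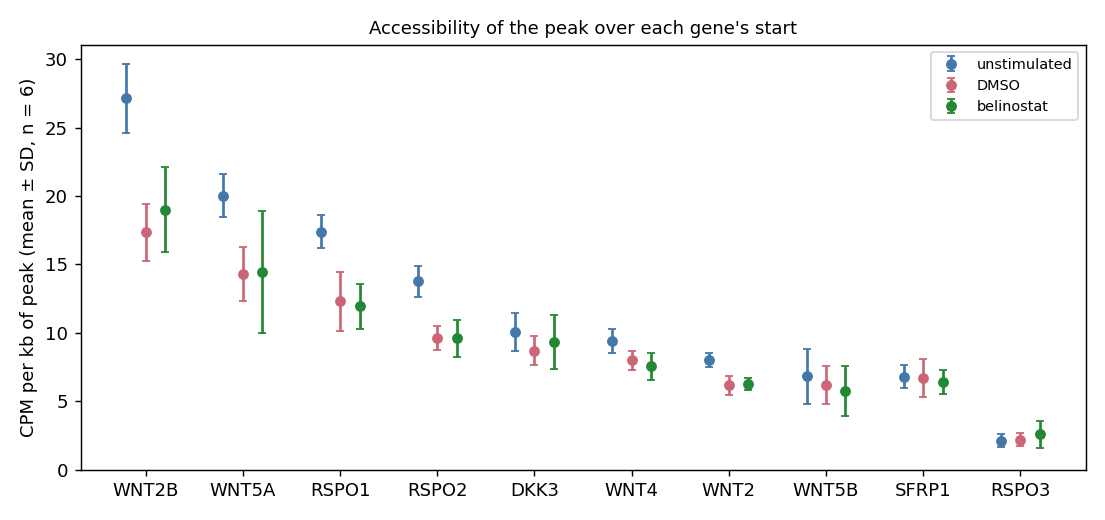
Accessibility of the peak over the start of each gene in CPM per kb of peak, on a linear axis. Points are means and bars SDs over 6 libraries, and the genes are ordered by their unstimulated level, from 27.1 at WNT2B to 2.13 at RSPO3.

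The first question was how accessibility at these genes differed between cells given the cytokine pulses and DMSO and unstimulated cells. RSPO2 and RSPO1, which encode potentiators of WNT signalling, were less accessible after the pulses, whereas RSPO3, SFRP1 and WNT4 were more accessible when the counts of all peaks of a gene were summed. Of the 10 summed loci, 3 rose and 2 fell (adjusted p under 0.05 over 19180 protein-coding loci), against 20.2% of all loci that rose and 13.4% that fell. By peak, 5 of 144 (3.47%) rose and 32 (22.2%) fell, against 9.51% and 9.73% of all peaks. The median log2 fold change of these peaks was -0.16, beside 0.13 for all peaks. Peaks of these genes were often strong, and 71 of 144 lay among the strongest 83714 of all peaks. There 29 of the 71 (40.8%) fell, and so did 35.8% of all peaks in that range, with medians of -0.30 for both. Weak peaks rose in general. Among the weakest 83715 of all peaks, 12.0% rose with a median of 0.61, and 1 of 22 peaks of these genes rose with a median of 0.46. In the next 83714 peaks, 12.4% rose with a median of 0.42, and 3 of 23 peaks of these genes rose with a median of 0.37. In the range between these and the strongest, 11.7% of all peaks rose and 2.58% fell, with a median of 0.13. Of the 28 peaks of these genes there, 1 rose and 2 (7.14%) fell, with a median of -0.06. A change in the share of cells with an open region and a change in every cell cannot be told apart in bulk libraries. With loess offsets 3 peaks rose and 10 fell, 8 of which were among the 32.

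**Figure D2:**
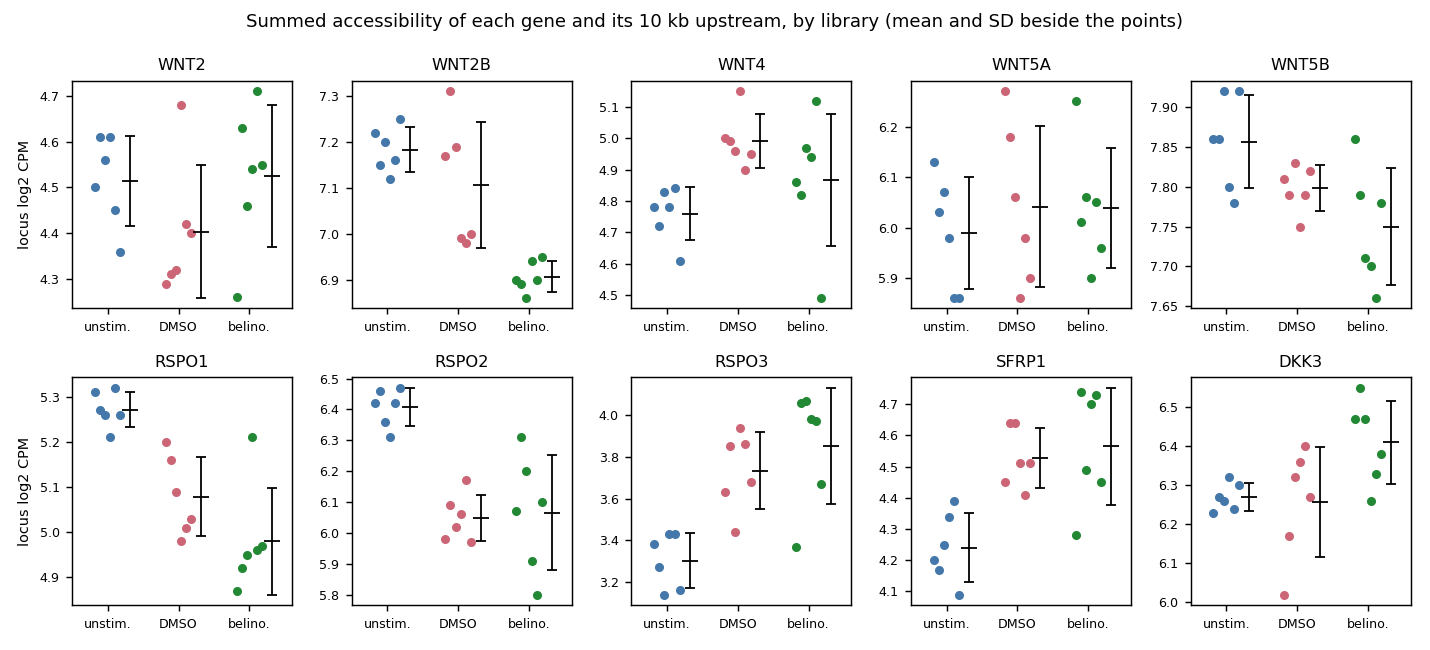
Summed accessibility of each gene in log2 CPM, with 1 point for each library, by group. Lines show the mean ± SD over 6 libraries, and each panel has its own axis. The DMSO libraries lie below all unstimulated libraries at RSPO1 and RSPO2 and above them at WNT4, RSPO3 and SFRP1.

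**Figure D3:**
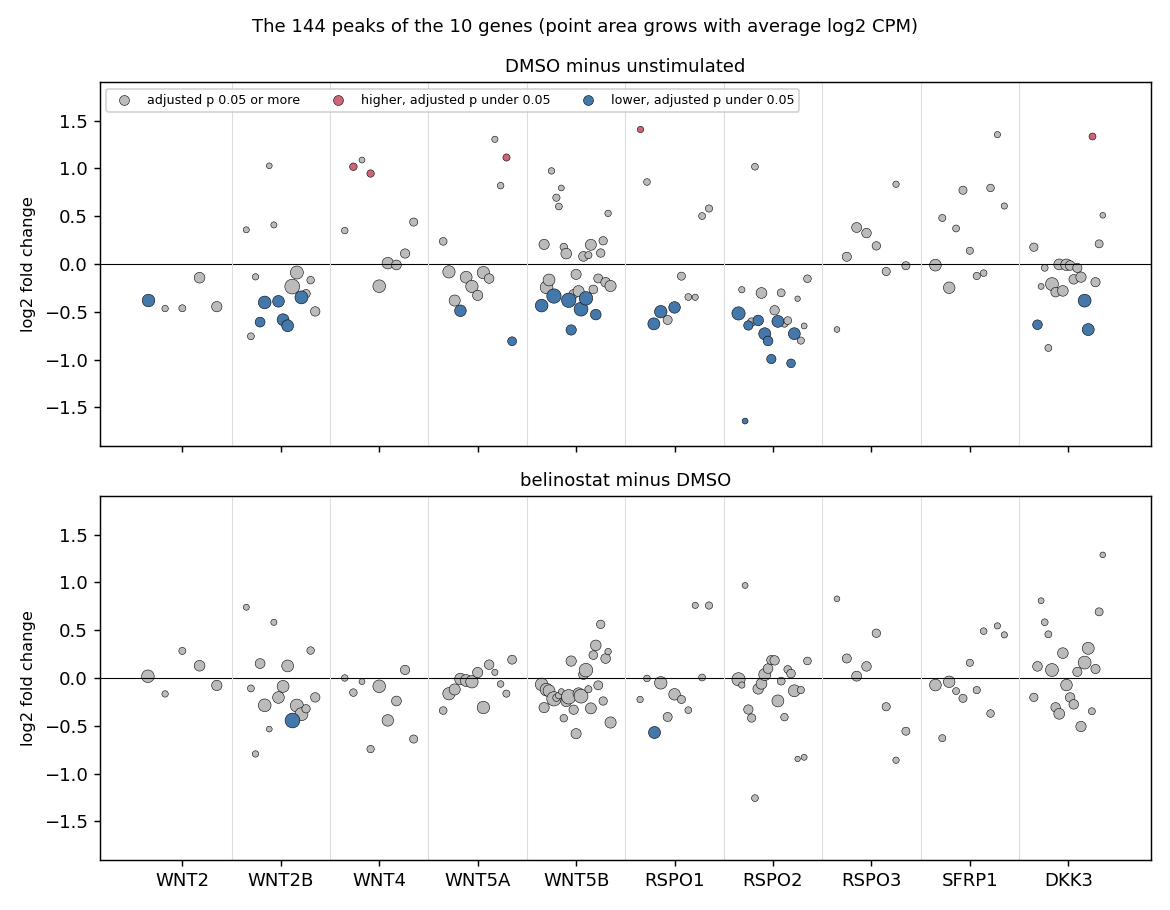
Log2 fold change of each of the 144 peaks by gene, in the cytokine contrast (upper) and the belinostat contrast (lower). Colour marks peaks with an adjusted p under 0.05 and point area grows with the average log2 CPM. In the cytokine contrast 32 peaks fell and 5 weak peaks rose, and in the belinostat contrast 2 fell.

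RSPO2 had the largest fall of the 10 sums. Its summed accessibility ran from 6.31 to 6.47 log2 CPM in unstimulated libraries, with a median of 6.42, and from 5.97 to 6.17 in DMSO libraries, with a median of 6.04. The groups did not overlap. The sum changed by -0.36 ± 0.06 (adjusted p = 0.000141), and it was called in all 29 alternatives, with adjusted p between 6.18e-07 and 0.000612. The median log2 fold change of its 22 peaks was -0.60, 21 of them were below 0, and 10 fell. Of all peaks 9.73% fell, and of the strongest 83714 of them 35.8% did. The peak over the start, RSPO2_p22 (chr8:108082213-108083968), overlaps the first 2 exons and ran from 4.44 to 4.76 log2 CPM in unstimulated and from 3.95 to 4.29 in DMSO libraries. It changed by -0.52 ± 0.11 (adjusted p = 0.000689), and by -0.16 with loess offsets, which did not pass the test (adjusted p = 0.218).

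Several intronic peaks of RSPO2 passed the test with loess offsets too. RSPO2_p5 (chr8:107956975-107957856), centred 126205 bp from the start, ran from 3.20 to 3.84 log2 CPM in unstimulated libraries, with a median of 3.57, and from 2.68 to 3.02 in DMSO libraries, with a median of 2.89. The groups did not overlap, and the peak changed by -0.73 ± 0.14 (adjusted p = 5.09e-05, or 0.0159 with loess offsets). RSPO2_p6 (chr8:107975768-107976147), a weaker peak, changed by -1.04 ± 0.26 (adjusted p = 0.00248, or 0.00442 with loess offsets), from a median of 1.41 to 0.30 log2 CPM. RSPO2_p12, RSPO2_p13 and RSPO2_p14, centred between 49719 and 53833 bp from the start, changed by -0.99, -0.81 and -0.73 (adjusted p = 0.00172, 0.00361 and 0.000133). RSPO2_p5, RSPO2_p6, RSPO2_p13 and RSPO2_p14 were called in all 27 alternatives, and RSPO2_p12 in all but the one without the 4 libraries (adjusted p = 0.0503). DMSO 1 was the lowest DMSO library at RSPO2_p14, at 2.36, where the other DMSO libraries lay between 2.90 and 3.19. In all, 6 of the 10 peaks that fell were called with loess offsets too. The 1 peak above 0, the weak intronic RSPO2_p17, changed by 1.02 ± 0.39 (adjusted p = 0.0517), and it was called higher in some alternatives, such as 10 kb bins (adjusted p = 0.0429) and without the 4 libraries (adjusted p = 0.0336).

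**Figure D4:**
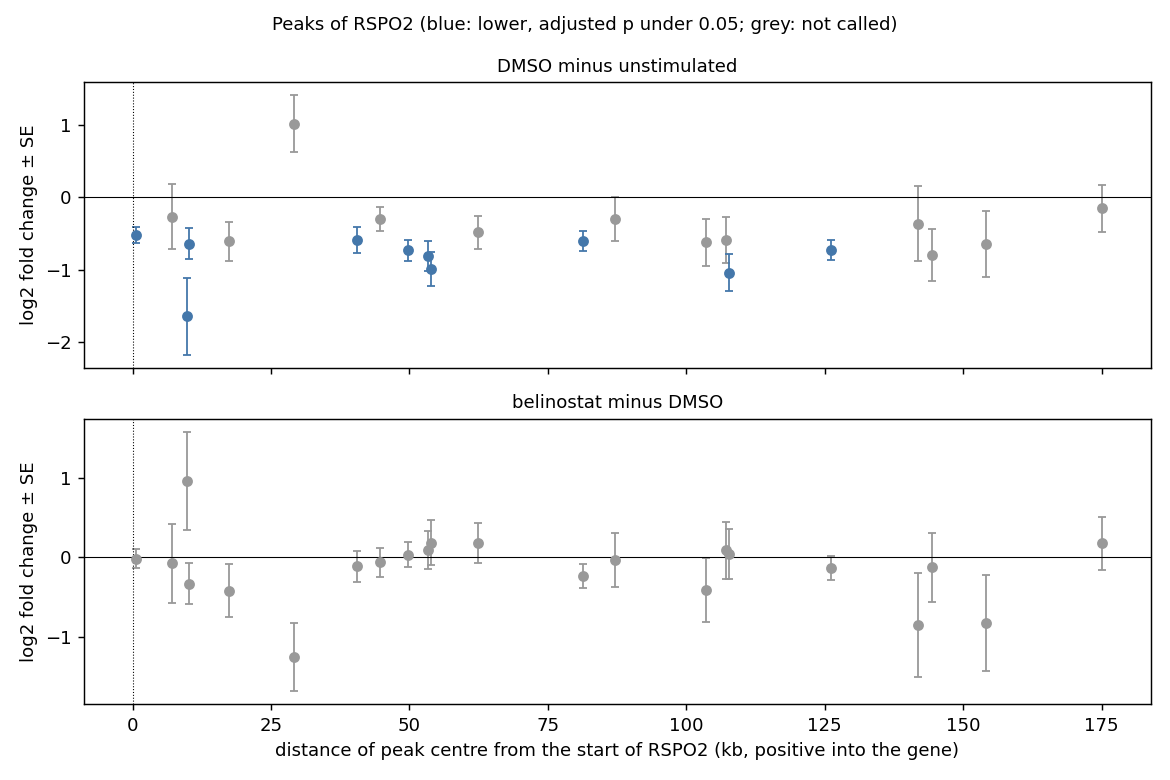
Log2 fold change ± SE of the 22 peaks of RSPO2 against the distance of the peak centre from the start in kb, for the cytokine contrast (upper) and the belinostat contrast (lower). After cytokines 21 of 22 peaks lie below 0 and 10 are called lower, in blue, while none is called after belinostat, where 1 is lower at an unadjusted p under 0.05.

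RSPO1 fell less. Its summed accessibility ran from 5.21 to 5.32 log2 CPM in unstimulated and from 4.98 to 5.20 in DMSO libraries, with medians of 5.27 and 5.06, and the groups did not overlap. The change was -0.19 ± 0.05 (adjusted p = 0.00866), with adjusted p of up to 0.0458 across the alternatives. Of its 11 peaks, 3 fell and 1 rose, beside 9.73% of all peaks that fell and 9.51% that rose. The upstream peak RSPO1_p9 (chr1:37635611-37636436), centred 1131 bp before the start, ran from 3.57 to 3.90 log2 CPM in unstimulated and from 2.76 to 3.45 in DMSO libraries. It changed by -0.63 ± 0.13 (adjusted p = 0.00042), without overlap of the groups. The peak over the start, RSPO1_p8, changed by -0.50 ± 0.12 (adjusted p = 0.0028). With loess offsets the adjusted p was 0.0773 for RSPO1_p9 and 0.303 for RSPO1_p8. The peak that rose, RSPO1_p11 (1.41 ± 0.48, adjusted p = 0.0267, or 0.219 with loess offsets), was weak, with an average log2 CPM of -0.28.

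RSPO3 went the other way. Its summed accessibility ran from 3.14 to 3.43 log2 CPM in unstimulated and from 3.44 to 3.94 in DMSO libraries, with medians of 3.33 and 3.76. It changed by 0.44 ± 0.12 (adjusted p = 0.0058), and by 0.26 with loess offsets (adjusted p = 0.0583). None of its 8 peaks was called, and 0 had an unadjusted p under 0.05. RSPO3_p3, the strongest of them, in the first exon just downstream of the start peak, changed by 0.38 ± 0.20 (adjusted p = 0.163). The locus was the weakest of the 10, with 1532 counts over all libraries, against 9343 at RSPO2.

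Among the WNT ligands, the sum over peaks and the peak at the start often differed. The WNT2B start peak, WNT2B_p10 (chr1:112508612-112509004, first exon), ran from 3.32 to 3.63 log2 CPM in unstimulated and from 2.53 to 3.04 in DMSO libraries. It changed by -0.65 ± 0.14 (adjusted p = 0.000435, or 0.0672 with loess offsets), with no overlap of the groups. Another 5 of the 16 WNT2B peaks fell, beside 9.73% of all peaks. With loess offsets none of these 6 was called and 2 others, WNT2B_p11 and WNT2B_p12, were higher. The WNT2B sum changed by -0.07 ± 0.05 (adjusted p = 0.218). Its strongest peak, WNT2B_p11, held 6998 of the 17287 counts of the locus. It changed by -0.24 ± 0.10 (adjusted p = 0.085), and by 0.19 with loess offsets (adjusted p = 0.0236), so the sign depends on the scaling. Without the 4 libraries it was called lower at -0.32 (adjusted p = 0.0324), and so was the sum at -0.15 (adjusted p = 0.0118).

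WNT5A, the main ligand of the β-catenin-independent branch, fell at its start. WNT5A_p10 (chr3:55486924-55487372, first exon) ran from 3.03 to 3.31 log2 CPM in unstimulated and from 2.48 to 3.02 in DMSO libraries, and changed by -0.49 ± 0.14 (adjusted p = 0.0107, or 0.366 with loess offsets). At the other end of the gene, WNT5A_p1, which overlaps the untranslated part of exon 5, changed by -0.81 ± 0.25 (adjusted p = 0.0151, or 0.039 with loess offsets and 0.0582 without the 4 libraries). WNT5A_p2, a weak intronic peak, rose by 1.12 ± 0.40 (adjusted p = 0.0335). It was not called with loess offsets (adjusted p = 0.243), without the 4 libraries (adjusted p = 0.0962), or without unstimulated 1, 3 or 6 or DMSO 2, 4 or 5 (adjusted p 0.0573 to 0.127). The WNT5A sum changed by 0.05 ± 0.06 (adjusted p = 0.536).

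WNT5B, its close relative, had 7 of 29 peaks that fell and none that rose, beside 9.73% and 9.51% of all peaks. The strongest, WNT5B_p12, ran from 5.54 to 5.86 log2 CPM in unstimulated and from 5.14 to 5.52 in DMSO libraries, and changed by -0.38 ± 0.10 (adjusted p = 0.00638). With loess offsets it was 0.03 (adjusted p = 0.826), and none of the 7 was called. The WNT5B sum changed by -0.06 ± 0.03 (adjusted p = 0.161) and its start peak, WNT5B_p24, by -0.15 ± 0.24 (adjusted p = 0.687).

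WNT4 rose as a sum, from between 4.61 and 4.84 log2 CPM to between 4.90 and 5.15, without overlap (0.24 ± 0.07, adjusted p = 0.0148). Its start peak, WNT4_p5, changed by -0.23 ± 0.12 (adjusted p = 0.156). A pair of weak upstream peaks rose, WNT4_p6 and WNT4_p8, by 0.95 and 1.02 (adjusted p = 0.0396 and 0.0283). Neither was called with loess offsets (adjusted p = 0.287 and 0.204), and the calls ended without unstimulated 1, 2, 3 or 6 or DMSO 1, 2, 4 or 6 (WNT4_p6) and without unstimulated 1 or 4 or DMSO 5 (WNT4_p8), with adjusted p between 0.0508 and 0.0923. Without the 4 libraries the adjusted p of WNT4_p6 was 0.148. WNT2, a ligand of the β-catenin branch, had 5 peaks, all below 0, of which the start peak WNT2_p5 changed by -0.38 ± 0.12 (adjusted p = 0.0192, or 0.86 with loess offsets and 0.0991 without the 4 libraries). This peak also overlaps another protein-coding gene. The WNT2 sum changed by -0.11 ± 0.08 (adjusted p = 0.271).

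The antagonists did not move together. SFRP1 rose as a sum, from between 4.09 and 4.39 log2 CPM to between 4.41 and 4.64 (0.29 ± 0.08, adjusted p = 0.00683), while none of its 11 peaks was called (3 higher at an unadjusted p under 0.05) and its start peak, SFRP1_p11, changed by -0.01 ± 0.14 (adjusted p = 0.958). The sums of SFRP1 and WNT4 depended on the scaling. When counts in 10 kb bins set the scale, the median of all loci moved to -0.21, and the changes were 0.11 at SFRP1 (adjusted p = 0.229) and 0.05 at WNT4 (adjusted p = 0.557), whereas RSPO3 was called at 0.25 (adjusted p = 0.0304). Under that scaling WNT2 (-0.30), WNT2B (-0.26), WNT5B (-0.25) and DKK3 (-0.20) were called lower too. DKK3, a divergent member of the Dickkopf family, changed by -0.01 ± 0.05 as a sum (adjusted p = 0.919). Of its 20 peaks 3 fell and 1 weak peak rose, beside 9.73% of all peaks that fell and 9.51% that rose. DKK3_p5 (chr11:11973405-11974040), centred 34904 bp from the start, ran from 3.41 to 3.68 log2 CPM in unstimulated and from 2.02 to 3.19 in DMSO libraries, and changed by -0.69 ± 0.14 (adjusted p = 0.000291, or 0.048 with loess offsets). The lowest values, 2.02 and 2.51, were those of DMSO 1 and 2. Without the 4 libraries it changed by -0.46 (adjusted p = 0.0191).

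The second question was whether accessibility at these genes differed between cells given belinostat and cells given DMSO. It fell at WNT2B, mainly at the strongest intronic peak, and at the peak upstream of RSPO1, and none of these calls held without the 4 libraries named above. The WNT2B sum was the only one of 10 called, against 3.93% of all loci that fell and 1.92% that rose. It ran from 6.98 to 7.31 log2 CPM in DMSO and from 6.86 to 6.95 in belinostat libraries, without overlap, and changed by -0.20 ± 0.05 (adjusted p = 0.0104). The DMSO libraries formed a high set, replicates 1 to 3, at 7.17 to 7.31, and a low set, replicates 4 to 6, at 6.98 to 7.00. By peak, 0 of 144 rose and 2 (1.39%) fell, against 0.607% and 1.75% of all peaks, and 5 rose and 15 fell at an unadjusted p under 0.05. DESeq2 called 0 higher and 3 lower. Among the strongest 83714 of all peaks, 2 of the 71 peaks of these genes (2.82%) fell, against 6.49% of all peaks in that range. The medians there were -0.09 and -0.10. In the weaker ranges, from the weakest up, the medians of these genes' peaks were 0.01, -0.12 and -0.18. Those of all peaks were 0.20, 0.10 and 0.04.

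WNT2B_p11 (chr1:112512996-112513757), centred 4411 bp from the start, ran from 5.58 to 6.07 log2 CPM in DMSO libraries, with a median of 5.81, and from 5.25 to 5.55 in belinostat libraries, with a median of 5.39. The groups did not overlap, and the peak changed by -0.44 ± 0.11 (adjusted p = 0.00604, or 0.0191 with loess offsets). It was called in 26 of 27 alternatives, each with 1 library left out among them, and not without the 4 libraries. RSPO1_p9 ran from 2.76 to 3.45 in DMSO and from 2.25 to 2.80 in belinostat libraries, which overlap slightly. It changed by -0.57 ± 0.15 (adjusted p = 0.0201), but the adjusted p was 0.0574 with loess offsets and between 0.0592 and 0.0986 without DMSO 1, 2 or 3 or belinostat 2 or 5. At both peaks DMSO 1 to 3 were higher than DMSO 4 to 6. Without the 4 libraries the changes were -0.29 at WNT2B_p11 (adjusted p = 0.342), -0.42 at RSPO1_p9 (adjusted p = 0.381) and -0.14 at the WNT2B sum (adjusted p = 0.156), and the calls over all peaks dropped from 2034 higher and 5865 lower to 785 and 1551.

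**Figure D5:**
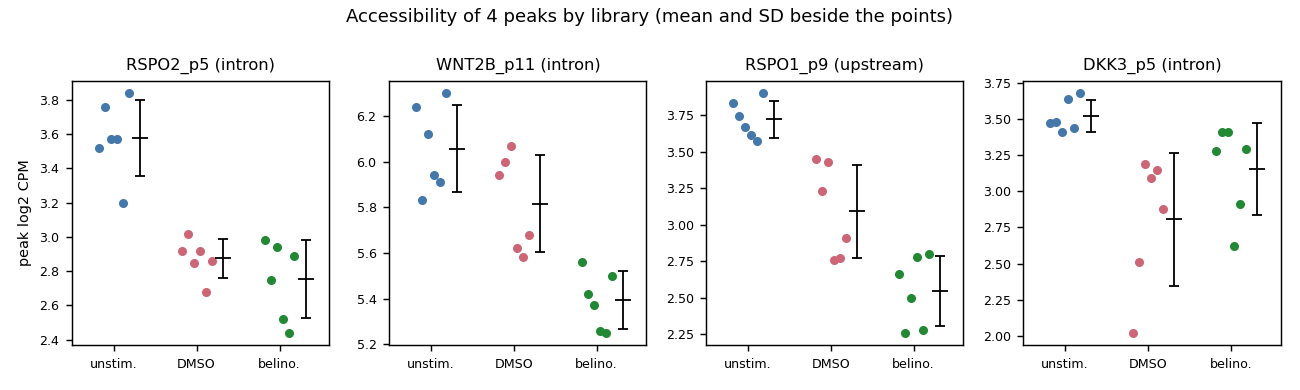
Accessibility of 4 peaks in log2 CPM, with 1 point for each library, by group. Lines show the mean ± SD over 6 libraries. RSPO2_p5 and DKK3_p5 are lower in DMSO than in unstimulated libraries, WNT2B_p11 is lowest in belinostat libraries without overlap, and the medians of RSPO1_p9 fall from 3.71 to 3.07 to 2.58 across the groups.

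The RSPO2 change seen after cytokines was still present in belinostat libraries. Between belinostat and DMSO the RSPO2 sum changed by 0.02 ± 0.06 (adjusted p = 0.883), with libraries from 5.80 to 6.31 log2 CPM, and the 10 RSPO2 peaks that had fallen had belinostat values between -0.33 and 0.97, with adjusted p of at least 0.435. RSPO2_p17 changed by -1.26 ± 0.43 (adjusted p = 0.101, or 0.0477 with loess offsets and 0.0244 without belinostat 4). RSPO3 (0.13 ± 0.12), SFRP1 (0.04 ± 0.08), WNT4 (-0.12 ± 0.08), WNT5A (-0.01 ± 0.07), WNT5B (-0.05 ± 0.03), WNT2 (0.13 ± 0.08) and RSPO1 (-0.09 ± 0.06) did not pass the test as sums. DKK3 changed by 0.15 ± 0.05 (adjusted p = 0.11), which passed with loess offsets (0.19, adjusted p = 0.0268), and DKK3_p5 by 0.31 ± 0.15 (adjusted p = 0.29, or 0.0474 with loess offsets).

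Belinostat libraries were also compared directly with unstimulated libraries. RSPO2 (-0.34 ± 0.06), RSPO1 (-0.29 ± 0.06), WNT2B (-0.28 ± 0.05) and WNT5B (-0.11 ± 0.03) were lower and RSPO3 (0.57 ± 0.12), SFRP1 (0.33 ± 0.08) and DKK3 (0.14 ± 0.05) higher as sums, beside 25.1% of all loci lower and 27.6% higher. The WNT5B call was lost with loess offsets (-0.03, adjusted p = 0.44) and without the 4 libraries (-0.08, adjusted p = 0.0887) and over peaks in no other protein-coding gene (-0.07, adjusted p = 0.142), and that of SFRP1 with 10 kb bins (0.07, adjusted p = 0.41). By peak 6 of 144 (4.17%) were higher and 44 (30.6%) lower, beside 16.8% and 13.7% of all peaks. With loess offsets 3 were higher and 15 lower, 10 of which were among the 44. Peaks of like strength were not compared here. The DKK3 call ended without unstimulated 1 or 5 or belinostat 1, 2 or 3 (adjusted p 0.0524 to 0.0911), with library totals and over peaks in no other protein-coding gene, and DKK3 was at -0.11 when 10 kb bins set the scale. RSPO1_p9 changed by -1.20 (adjusted p = 1.15e-11) and WNT2B_p11 by -0.67 (adjusted p = 1.09e-07), but WNT2B_p11 was at -0.03 with loess offsets (adjusted p = 0.791).

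Summed loci of 63 further genes of the pathway set these values beside other ligands, receptors and signalling proteins. After cytokines 17 rose and 7 fell, with a median of 0.05 beside -0.02 for all loci, of which 20.2% rose and 13.4% fell. Among 14 other WNT ligands 8 rose and 1, WNT9A (-0.20 ± 0.05, adjusted p = 0.00296), fell. WNT7A (0.78 ± 0.18, adjusted p = 0.00258) and WNT3A (0.69 ± 0.15, adjusted p = 0.0017) rose most of these, RSPO4, the remaining R-spondin, rose too (0.68 ± 0.18, adjusted p = 0.00677), and all 3 were called with loess offsets too. Of 10 other antagonists 4 rose, among them SFRP2 (0.91 ± 0.20, adjusted p = 0.00142), DKK4 (0.79 ± 0.23, adjusted p = 0.00966) and SFRP5 (0.60 ± 0.12, adjusted p = 0.000945), and FRZB fell (-0.24 ± 0.09, adjusted p = 0.0348). The FRZB call ended without unstimulated 1, 2 or 4 or DMSO 2, 3, 4 or 5 (adjusted p 0.0535 to 0.103). With loess offsets SFRP2 and DKK4 were not called (adjusted p = 0.0725 and 0.302), and with 3 kb upstream SFRP5 and DKK4 were not (adjusted p = 0.0524 and 0.13).

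Of 15 receptors none rose and 3 Frizzled loci fell, FZD8 (-0.30 ± 0.06, adjusted p = 0.00101), FZD2 (-0.21 ± 0.06, adjusted p = 0.00975) and FZD7 (-0.13 ± 0.05, adjusted p = 0.0436). Of all loci 20.2% rose and 13.4% fell. At an unadjusted p under 0.05, 0 of the 15 were higher and 5 lower. The FZD7 call was lost with loess offsets (-0.07, adjusted p = 0.22), without the 4 libraries (adjusted p = 0.0675), and without unstimulated 1, 3, 4, 5 or 6 or DMSO 1, 2, 4, 5 or 6 (adjusted p 0.0609 to 0.0933). Of the LGR receptors and their ligases 2 of 5 rose, LGR6 (0.13 ± 0.04, adjusted p = 0.0319), which was -0.06 when 10 kb bins set the scale, and RNF43 (0.39 ± 0.13, adjusted p = 0.0236). RNF43 was not called with loess offsets (0.17, adjusted p = 0.297), with 10 kb bins (0.20, adjusted p = 0.122), or without unstimulated 1 or 3 or DMSO 4 or 5 (adjusted p 0.0566 to 0.067). LGR6 was not called without unstimulated 1, 3, 4 or 6 or DMSO 5 or 6 (adjusted p 0.0513 to 0.0884), nor with library totals (adjusted p = 0.0591). AXIN2 (-0.19 ± 0.04, adjusted p = 0.00302), a feedback target of β-catenin, fell and NKD2 (0.33 ± 0.05, adjusted p = 0.000126), an inhibitor of Dishevelled, rose. In the belinostat contrast 3 of the 63 fell and none rose, beside 3.93% of all loci that fell and 1.92% that rose. Of the 63, 7 fell and 7 rose at an unadjusted p under 0.05, and DESeq2 called 1 lower and 0 higher. The 3 that fell were NOTUM (-0.21 ± 0.06, adjusted p = 0.0434), which removes the lipid of WNT ligands, NKD2 (-0.19 ± 0.05, adjusted p = 0.0408) and AXIN2 (-0.17 ± 0.05, adjusted p = 0.0342). None of the 3 was called without the 4 libraries (adjusted p = 0.0997, 0.0598 and 0.314), and with loess offsets NOTUM was called (adjusted p = 0.033) but NKD2 and AXIN2 were not (adjusted p = 0.13 and 0.0696). Leaving out a single library ended the calls as well, unstimulated 1, any DMSO library or belinostat 1 to 5 for NOTUM, DMSO 2, 3 or 6 or belinostat 2 to 5 for AXIN2, and DMSO 1, 2, 4, 5 or 6 or belinostat 1, 2, 3 or 6 for NKD2. At NOTUM the value was 0.11 (adjusted p = 0.654) with only 3 kb upstream counted.

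By Pearson correlation of summed log2 CPM over the 18 libraries, the locus on another chromosome most like each gene was CTSC for WNT2B (r = 0.952), ALPP for RSPO3 (0.968), OR56A3 for SFRP1 (0.914), TLN2 for RSPO2 (0.910), DENND4A for WNT5B (0.910), SH3TC2 for DKK3 (0.902), PRCD for RSPO1 (0.855), ARHGDIG for WNT4 (0.851), HOXD12 for WNT5A (0.836) and TGIF2 for WNT2 (0.822). These are the highest of at least 17204 loci each and share libraries, groups and depth, so they are a description only.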

How the data were processed

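Omni-ATAC libraries of Ccd18-Co fibroblasts were processed by the authors with the ENCODE ATAC-seq pipeline (adaptor trimming, alignment to hg38, MACS2 peak calls merged to consensus peaks, blacklisted regions excluded). The deposited table holds unnormalized csaw fragment counts by the authors. ChIPseeker 1.34.1 is named in the submitters' processing notes. Their scaling on background bins was not used here.

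Peaks (median width 275 bp) were assigned to genes with GENCODE release 44 of hg38 (body plus 10 kb upstream, starts counted from 1). In R 4.3.3, edgeR 4.0.16 compared the counts (glmQLFit and glmQLFTest, earlier quasi-likelihood method, 1 mean per group, TMM factors over peaks, or over loci for the sums), with Benjamini-Hochberg adjustment over 334857 peaks or over the summed counts of 19180 protein-coding loci, at a threshold of 0.05. The code of the fit was tested on simulated data. A fall or rise means an adjusted p under this threshold. SEs are the log2 fold change over the root of the F statistic. Log2 CPM used a prior count of 2. Genes that overlap share peaks, and strand plays no part. P-values measure only the spread between these libraries, since no label names separate cultures, and counting error sets the precision of weak peaks. Differences in counts were compared between libraries of the same group only. The chi-square per peak was above 1, the value for counting error alone, in every pair. It was lowest for unstimulated 3 and 4, at 1.016. Whether libraries were repeats of a single preparation was not tested. Alternatives were other scalings, loess offsets (limma 3.58.1), a filter at an average log2 CPM of 0, DESeq2 1.42.0, replicate blocks, other gene windows and leaving out libraries. Named peaks were those over starts, the strongest of each gene, up to 6 largest rises and falls per contrast (average log2 CPM 0 or more), and the smallest belinostat p of each gene, 31 in all. Of the 63 pathway loci, those called after belinostat and the 5 largest rises and falls after cytokines were to be named. DKK3_p5, RSPO1_p11, WNT2B_p12, SFRP5, FZD7, LGR6 and RNF43 were named after their values were seen. The genes and lists were chosen with earlier results of these data known. Some markers are not reported here.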

Additional observations from a re-analysis of the deposited data

Results flagged for a closer look

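Of 126 groups of 6 libraries tested at the loci and peaks named (Dixon's test), 4 held a library far from the others, where chance flags about 5% of groups. At the WNT2 sum DMSO replicate 4 stood at 4.68 log2 CPM, beside 4.29 to 4.42 in the other DMSO libraries. At the RSPO1 sum belinostat replicate 4 stood at 5.21, beside 4.87 to 4.97. At RSPO2_p14 DMSO replicate 1 stood at 2.36, beside 2.90 to 3.19. At WNT5B_p15, an intronic peak, DMSO replicate 4 stood at 1.56, beside 1.92 to 2.13. Replicate 1 of DMSO and replicate 4 of belinostat are among the 4 libraries that deviated together.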

How the results depend on the processing

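Of 4228 comparisons of single values with an alternative, 3893 kept their call or lack of one, 267 lost the call and 46 gained one. In 22 the sign changed with a call in either fit. Values called in neither fit count among the 3893 even where their sign changed. In the cytokine contrast, library totals gave 12 peaks higher and 13 lower, loess offsets 3 and 10, DESeq2 0 and 19, and a filter at an average log2 CPM of 0 or a window of 3 kb 3 higher. With 10 kb bins 1 locus was higher and 6 lower, and of the pathway loci 11 and 29, while totals gave 12 pathway loci lower. In the belinostat contrast, loess offsets gave 3 peaks, 1 locus and 2 pathway loci higher, and 1 pathway locus was lower with loess offsets, RLE factors, DESeq2 or 3 kb. Without the 4 libraries 0 peaks, 0 loci and 0 pathway loci were lower. Between belinostat and unstimulated, totals gave 18 peaks higher and 16 lower, loess offsets 3 and 15, DESeq2 28 lower, the filter 3 higher, and leaving out the 4 libraries 1 and 26. With 10 kb bins 1 locus and 13 pathway loci were higher and 33 pathway loci lower.

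Leaving out 1 library at a time gave, in the cytokine contrast, 1 to 8 peaks higher (1 without unstimulated 6, 8 without DMSO 3) and 23 to 35 lower, 3 to 3 loci higher and 2 to 3 lower, and 13 to 18 pathway loci higher and 4 to 9 lower. In the belinostat contrast it gave 0 to 0 peaks higher and 1 to 3 lower, 0 to 0 loci higher and 1 to 1 lower, and 0 to 4 pathway loci in either direction (4 higher without belinostat 1, 0 lower without DMSO 2 or 6 or belinostat 2 or 3). Between belinostat and unstimulated it gave 2 to 10 peaks higher (2 without belinostat 5, 10 without belinostat 1) and 35 to 48 lower, 2 to 4 loci higher and 4 to 4 lower, and 22 to 26 pathway loci higher and 8 to 12 lower.

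Same-numbered libraries deviated with correlations between -0.18 and 0.15, so the numbers were not taken as pairs. A replicate block gave 1 pathway locus higher after belinostat, and called WNT2B_p11 (adjusted p = 0.0499) and RSPO2_p17 (adjusted p = 0.0461) in the cytokine contrast. The replicate block with loess offsets gave 3 peaks higher and 10 lower after cytokines, 3 peaks, 1 locus and 2 pathway loci higher and 0 loci and 1 pathway locus lower after belinostat, and 15 peaks lower between belinostat and unstimulated.

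These signs changed. In the cytokine contrast WNT2B_p11 was 0.188 and WNT5B_p12 0.026 with loess offsets (0.187 and 0.026 with the block), and LGR6 was -0.057 and TCF7 -0.033 with 10 kb bins. In the belinostat contrast NOTUM was 0.106 with 3 kb. Between belinostat and unstimulated the 10 kb bins gave -0.245 at WNT2, -0.205 at WNT5A and -0.112 at DKK3. Loess offsets, without and with the block, gave 0.374 and 0.376 at DKK3_p15, 0.171 and 0.177 at WNT4_p5, 0.130 and 0.134 at WNT2_p5, 0.088 and 0.093 at WNT5A_p6, 0.032 and 0.030 at WNT5B_p12 and 0.055 and 0.052 at DKK3_p5. The causes were not tested. Depth limits the weak peaks, such as RSPO2_p20 with 54 counts over all libraries.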
